A study of Mus musculus with 22 samples.

Results

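The activator protein 1 (AP-1) subunits and a set of other immediate early genes were followed in FE1 cells, a lung epithelial line of the transgenic MutaMouse strain, that had been exposed for 24 h to the multi-walled carbon nanotube Mitsui7. The 10 members were the Fos family (Fos, Fosb, Fosl1 and Fosl2), the Jun family (Jun, Junb and Jund) and the genes Egr1, Ier3 and Myc. They were found by matching the accession of each array probe to these symbols, which gave 11 probes among the 20018 named genes of the array, 1 for each member and a second, dim probe for Fosl2. There were 5 arrays of untreated control cells (0 µg/ml), 6 of cells given a low dose of 12.5 µg/ml, 5 at a medium dose of 25 µg/ml and 6 at a high dose of 100 µg/ml. All groups, the control included, grew in medium with fetal bovine serum, antibiotics and murine epidermal growth factor, and all cells were trypsinised and pelleted before the RNA was taken. Sample RNA was always labelled with Cy5 and hybridised against Cy3-labelled mouse reference RNA, a commercial pool, so each value is a log2 ratio of sample to pool, with 0 meaning equal signal. Dyes were never exchanged, so a dye bias of a probe remains in its ratio and cancels only in a difference between groups. FE1 is a single line, and the study names fewer separate exposures than there are arrays in a group. The labels do not say which arrays came from which exposure. The p-values therefore measure the spread between these arrays, not between independent exposures.

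AP-1 is a pair of basic leucine zipper proteins, made of a Jun protein bound to another Jun, to a Fos protein or to a relative such as Atf3. The pair binds short palindromic sites in promoters and enhancers and is a common end point of the ERK, JNK and p38 kinase cascades. Immediate early genes are transcribed within minutes of a growth factor, serum, stretch or stress signal, from factors that are already present, and the RNA of Fos or Egr1 usually fades again within hours, while Fosl1 RNA appears later and can persist. In airway and alveolar epithelium AP-1 is known for its part in the response to inhaled particles and oxidants and for its targets among the matrix metalloproteinases. A single time point of 24 h shows the level that remained or was held at that time, not the first wave.

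The promoters of Fos, Jun, Ier3 and Junb are shown because the first 3 of these genes rose with Mitsui7 and Junb did not pass the test at any dose. The sequences are RefSeq windows on GRCm38.p6 from 250 bases before to 50 bases after the annotated start site, written along the gene, and such a window was held for 7 of the 10 members. Capitals mark matches, on either strand, to the 7 motifs searched. These were the AP-1 site TGACTCA (TRE), the cyclic AMP response element TGACGTCA (CRE), the form TGACNTCA that takes in the CRE, the CArG box bound by serum response factor, the E-box CACGTG bound by Myc with Max, the TATA form TATAAA, and the CCAAT box.
Fos, chr12:85473640-85473939, plus strand: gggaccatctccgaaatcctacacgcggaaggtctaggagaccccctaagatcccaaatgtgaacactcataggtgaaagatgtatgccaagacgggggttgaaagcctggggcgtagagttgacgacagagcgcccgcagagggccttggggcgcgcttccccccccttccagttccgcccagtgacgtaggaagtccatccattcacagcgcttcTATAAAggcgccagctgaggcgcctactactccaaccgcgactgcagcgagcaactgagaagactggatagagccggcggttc
Jun, chr4:95052173-95052472, minus strand: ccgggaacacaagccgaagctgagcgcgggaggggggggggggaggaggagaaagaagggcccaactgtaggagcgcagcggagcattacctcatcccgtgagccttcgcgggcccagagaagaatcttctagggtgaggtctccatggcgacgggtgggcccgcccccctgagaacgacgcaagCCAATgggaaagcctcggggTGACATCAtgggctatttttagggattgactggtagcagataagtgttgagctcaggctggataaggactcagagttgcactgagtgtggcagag
Ier3, chr17:35821463-35821762, plus strand: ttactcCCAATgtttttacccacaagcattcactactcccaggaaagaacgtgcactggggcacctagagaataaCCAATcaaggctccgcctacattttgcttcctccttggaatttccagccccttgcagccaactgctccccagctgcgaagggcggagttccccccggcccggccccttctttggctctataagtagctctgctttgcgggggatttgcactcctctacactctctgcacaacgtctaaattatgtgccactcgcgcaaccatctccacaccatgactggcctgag
Junb, chr8:84978699-84978998, minus strand: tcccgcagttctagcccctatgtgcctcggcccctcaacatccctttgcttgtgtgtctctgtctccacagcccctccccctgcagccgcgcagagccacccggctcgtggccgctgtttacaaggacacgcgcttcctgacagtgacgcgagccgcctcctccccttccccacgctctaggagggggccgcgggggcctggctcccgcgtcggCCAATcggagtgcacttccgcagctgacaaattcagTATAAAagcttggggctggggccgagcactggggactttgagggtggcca
Positions count from the start site as 1, with -1 as the base before it, and give the first base of a match. In the Jun window 1 match to TGACNTCA lay at -45 and 1 CCAAT box at -65. The Fos window held TATAAA at -33. The Ier3 window held CCAAT boxes at -244 and -175, and the Junb window held TATAAA at 1 and a CCAAT box at -36. The Fosb, Fosl2 and Jund windows matched none of the motifs. Across all 32851 windows of the same length, 8.834% held TGACNTCA, 5.202% the TRE, 1.79% the CRE, 1.629% the CArG box, 7.15% the E-box, 13.62% TATAAA and 37.41% a CCAAT box. These are matches of letters in a short window and say nothing of binding.

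The arrays lay on 5 slides. Each group had 2 arrays on slide 1 and 1 array on each of slides 2, 3 and 4, and slide 5 carried a low and a high dose array. Between 23688 and 39139 of 55681 probes per array were above the negative control level in Cy5, with the fewest on control replicates 4 and 5. Along the main axis of the 2099 probes called at the high dose with a value on every array, low dose replicate 1 (score 10.2, other low dose arrays -5.33 to 4.18) lay among the medium dose arrays, and medium dose replicate 2 (4.49, others 6.90 to 12.2) lay just above the low dose range. Both are on slide 1, and results are given without them where they bear on a call. Of 8 epithelial markers, the keratins Krt8, Krt18 and Krt7 and the claudin Cldn7 were detected on all 22 arrays. Krt19 was detected on 21, Cldn4 on 16, Epcam on 10 and Cdh1 on none. The endothelial gene Kdr and the leukocyte genes Itgam and Cd3e were also detected on 22 arrays, and Pecam1 and Ptprc on 21. Others of those 2 lists were rarer, with Lyz2 on 6, Cdh5 on 1 and Tek on 0. Detection alone therefore does not identify a cell type. Krt7 was called lower at the medium and high dose (-0.85 at the high dose). Of 5 alveolar type II markers, Abca3 and Lamp3 were detected on 22 arrays, Sftpc on 17, Sftpb on 3 and Sftpa1 on none. Lamp3 was called higher at the medium and high dose (0.90 at the high dose). At the high dose Abca3 changed by -0.63 and Sftpc by 0.61, and neither was called at any dose. Of 6 fibroblast genes, Col1a1, Col1a2, Pdgfra, Pdgfrb and Dcn were detected on every array and all 5 were called lower at the high dose, and the mean log2 ratio over the 6 ran from -0.37 to -0.05 in controls and from -1.77 to -1.36 at the high dose. The part of these shifts in the changes of the members was not tested. In bulk RNA, fewer cells of a type and less RNA per cell cannot be told apart.

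Most of the AP-1 and immediate early genes were higher in cells given Mitsui7. A call needed a limma p of 0.05 or less after Benjamini-Hochberg adjustment over all probes, a 1.5-fold or larger change, and detection on 4 or more arrays of the dose or of the control group. Of the 10 members, 5 were called higher at the low dose, 6 at the medium dose and 7 at the high dose, and 0 were called lower. Over all detected probes the share called higher was 1.32% at the low dose, 2.68% at the medium dose and 3.32% at the high dose, and the share called lower was 1.93%, 2.92% and 4.23%. The median change of the members was 0.74, 0.92 and 1.12 on the log2 scale at the 3 doses, beside 0.01 over all detected probes at each. Fos, Fosl1, Jun, Ier3 and Myc were called at every dose, Jund at the medium and high dose and Fosb at the high dose alone, while Fosl2, Junb and Egr1 were called at none. The counts of members were the same without low dose replicate 1 and medium dose replicate 2, and were 4, 5 and 6 without control replicates 4 and 5. The share of higher calls among all probes depended on the scaling. With median centring in place of loess, 63 of 423 low dose calls were higher (14.89%, against 40.64% of 999 with loess) and 376 of 1296 high dose calls (29.01%, against 44.03% of 2437), and the members called at the low dose numbered 2. Every member passed the detection filter at each dose. Fos passed it through the dose groups alone, since it was detected on 3 of 5 control arrays.

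**Figure D1:**
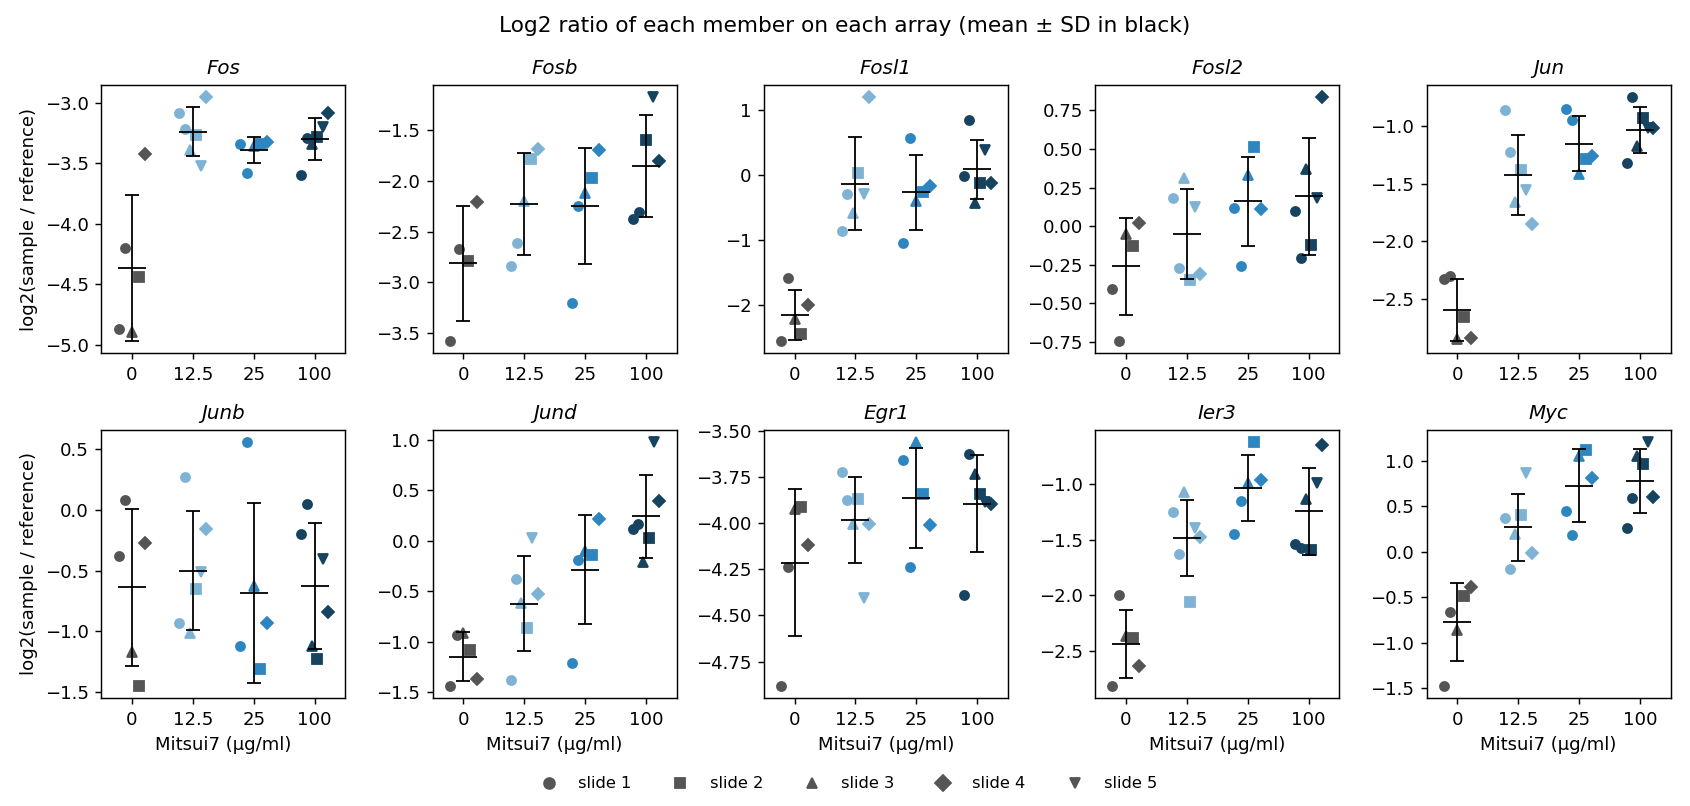
Log2 ratio of sample to reference pool (y axis) of each member on each of the 22 arrays, by Mitsui7 concentration in µg/ml (x axis), with symbols for the slide and black bars for the mean ± SD of the group. Each panel has its own y range. Every treated array of Fosl1, Jun and Myc lies above every control array, while the groups of Junb and Egr1 run into each other.

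Among the Fos proteins, which bind DNA only with a partner, Fosl1 had the highest rise. Fosl1 encodes Fra-1, which lacks the strong activation domain of Fos. Its log2 ratios in control replicates 1 to 5 were -2.56, -1.59, -2.22, -2.45 and -2.01. They were -0.87 (lowest), -0.29 (median) and 1.20 (highest) at the low dose. At the medium dose replicates 1 to 5 gave -1.06, 0.56, -0.41, -0.26 and -0.18, and the 6 high dose arrays ran from -0.44 to 0.84 with a median of -0.08. No treated array overlapped the controls, and the high dose arrays lay in the same range as the low dose arrays. Against control Fosl1 rose 4.03-fold at the low dose (log2 2.01, SE 0.31, limma adjusted p = 0.000519), 3.72-fold at the medium dose (log2 1.90, SE 0.32, adjusted p = 0.000694) and 4.70-fold at the high dose (log2 2.23, SE 0.31, adjusted p = 5.5e-05). On 4 of 5 control arrays its spot stood well above background.

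Fos, the founding member and a classic serum response gene, rose at all doses on these arrays. Control replicates 1 to 5 had log2 ratios of -4.87, -4.20, -4.89, -4.44 and -3.43. The low dose arrays ran from -3.52 to -2.95 (median -3.24), the medium dose replicates gave -3.34, -3.58, -3.36, -3.34 and -3.33, and the high dose arrays ran from -3.60 to -3.08 (median -3.29). Control replicate 5 alone overlapped the treated arrays, and after adjustment for slide every treated array lay above every control. Fos rose 2.21-fold at the low dose (log2 1.14, SE 0.16, limma adjusted p = 0.000175), 1.97-fold at the medium dose (log2 0.98, SE 0.16, adjusted p = 0.000655) and 2.12-fold at the high dose (log2 1.09, SE 0.16, adjusted p = 9.77e-05). Its Cy5 signal was dim, with 78.25 to 177 units in controls and medians of 199, 245 and 212 at the 3 doses, and it was not well above background on control replicates 4 and 5. Without those 2 arrays the changes were 1.38, 1.21 and 1.32. Taken from the scanner's own log ratio, which subtracts background, they were 2.02, 1.98 and 2.06 on the log2 scale, so the call stood with another size. That ratio differs from the loess values in both background and dye correction, and which of these moved the size was not tested. By quantitative PCR the paper reports Fos as lower at the low dose and higher at the medium and high dose. Beside those values it lists an array change of Fos at the high dose alone. The low dose rise of Fos found here thus has the opposite sign to the paper's PCR value, and the reason was not tested. For Jun the paper lists significant PCR rises at the medium and high dose but not at the low dose. Its array values for Jun are higher at every dose. Myc is listed there as higher by both methods at every dose.

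Fosb and Fosl2 had smaller changes. Fosb, which like Fos responds to serum and stress, had no value on 3 arrays whose spots were marked as outliers (control replicate 3, low dose replicate 5 and high dose replicate 3). Its remaining controls read -3.58, -2.67, -2.79 and -2.21. The low dose values were -2.84, -2.61, -2.20, -1.79 and -1.69, the medium dose values -3.21, -2.25, -2.12, -1.97 and -1.69, and the high dose values -2.37, -2.31, -1.60, -1.18 and -1.80. The groups overlapped, and replicate 1 was the lowest array in each of them. Fosb rose 1.73-fold at the high dose (log2 0.79, SE 0.20, limma adjusted p = 0.0189). At the low dose its change was 0.57 (95% interval 0.15 to 0.98, adjusted p = 0.151) and at the medium dose 0.55 (0.13 to 0.96, adjusted p = 0.146). With the replicate number as a block the low dose change was 0.65 and was called (adjusted p = 0.0178). Without control replicate 2 Fosb was called at the low dose (0.76, adjusted p = 0.0317) and the medium dose (0.74, adjusted p = 0.0286), and without medium dose replicate 1 at the medium dose (0.72, adjusted p = 0.0315). The high dose call was lost without control replicate 1 (adjusted p = 0.0705), control replicate 4 (0.0882), high dose replicate 2 (0.0541) or high dose replicate 4 (0.0673), by limma in each case. Without both control replicates 4 and 5 its change was 0.68 (adjusted p = 0.187).

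Fosl2, which encodes Fra-2, did not pass the test at any dose. Its control log2 ratios were -0.41, -0.74, -0.05, -0.13 and 0.02, and the medium dose replicates read 0.11, -0.26, 0.33, 0.51 and 0.11. The low dose ran from -0.35 to 0.31 (median -0.07) and the high dose from -0.21 to 0.84 (median 0.14), so the groups overlapped. The changes were 0.19 (95% interval -0.15 to 0.54), 0.42 (0.07 to 0.78) and 0.44 (0.09 to 0.78) on the log2 scale, with limma adjusted p of 0.692, 0.202 and 0.134. The second Fosl2 probe, well above background on 1 of 5 control arrays, gave 0.15, 0.14 and 0.29, none of them called.

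In the Jun family the genes for c-Jun and JunD rose, and that for JunB did not pass the test. Jun, which encodes the main target of JNK and can drive its own promoter, read -2.33, -2.31, -2.85, -2.66 and -2.84 in control replicates 1 to 5. The low dose arrays ran from -1.85 to -0.86 (median -1.47), the medium dose replicates read -0.85, -0.95, -1.41, -1.29 and -1.26, and the high dose arrays ran from -1.32 to -0.75 (median -1.01). No treated array overlapped the controls. The rises were 2.28-fold (log2 1.19, SE 0.12, limma adjusted p = 5.15e-06), 2.73-fold (log2 1.45, SE 0.12, adjusted p = 3.59e-07) and 2.99-fold (log2 1.58, SE 0.12, adjusted p = 4.05e-08) at the low, medium and high dose. Jun was well above background on all arrays, and it had the smallest adjusted p of the members at each dose. Of 41 alternatives, only median centring took a Jun call, at the low dose (change 1.05, adjusted p = 0.052).

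Jund, which encodes a subunit that is present in most resting cells, was the member with the widest difference between the high and the low dose. Control replicates 1 to 5 read -1.44, -0.93, -0.91, -1.09 and -1.37 on the log2 scale. The low dose ran from -1.38 to 0.03 (median -0.57) and overlapped the controls. The medium dose replicates read -1.22, -0.19, -0.10, -0.14 and 0.22, and the high dose ran from -0.21 to 0.98 (median 0.14), above every control. Medium dose replicate 1 stood apart from the other 4 medium dose arrays, and low dose replicate 1 on the same slide was also within the control range. Against control the change was 0.39 at the low dose (SE 0.20, 95% interval -0.04 to 0.81, limma adjusted p = 0.425). Jund rose 1.82-fold at the medium dose (log2 0.86, SE 0.21, adjusted p = 0.0147) and 2.38-fold at the high dose (log2 1.25, SE 0.20, adjusted p = 0.000289). Without medium dose replicate 1 the medium dose change was 1.08 (adjusted p = 0.000669), without control replicate 5 it was 0.72 (adjusted p = 0.0572) and without medium dose replicate 5 it was 0.76 (adjusted p = 0.0631), the last 2 no longer called by limma.

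Junb, which often opposes c-Jun in growth control, did not pass the test at any dose. The control replicates read -0.38, 0.08, -1.17, -1.45 and -0.27 and the medium dose replicates -1.12, 0.56, -0.63, -1.31 and -0.93. The low dose ran from -1.02 to 0.27 (median -0.58) and the high dose from -1.23 to 0.05 (median -0.62). All groups overlapped, and replicate 2, on slide 1, was the highest array in each. The changes were 0.12 (95% interval -0.43 to 0.67), -0.05 (-0.61 to 0.51) and -0.01 (-0.55 to 0.54), with limma adjusted p of 0.904, 0.970 and 0.996. The intervals reach a 1.5-fold rise at the low dose and a 1.5-fold fall at the medium dose, so the data do not show that Junb was unchanged. On 3 of 5 control arrays its spot stood well above background.

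Of the remaining members, Myc and Ier3 rose and Egr1 did not pass the test. Myc, a leucine zipper factor that pairs with Max and drives ribosome production and growth, read -1.48, -0.66, -0.86, -0.49 and -0.39 in control replicates 1 to 5. The low dose ran from -0.19 to 0.86 (median 0.28), the medium dose replicates read 0.44, 0.18, 1.05, 1.12 and 0.81, and the high dose ran from 0.26 to 1.21 (median 0.79). Every treated array was above every control. Myc rose 1.92-fold at the low dose (log2 0.94, SE 0.16, limma adjusted p = 0.001), 2.82-fold at the medium dose (log2 1.497, SE 0.16, adjusted p = 5.04e-06) and 2.74-fold at the high dose (log2 1.45, SE 0.16, adjusted p = 2.6e-06).

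Ier3, a stress-induced protein that acts on ERK signalling and cell survival, read -2.81, -2.0004, -2.36, -2.38 and -2.63 in the controls. The low dose ran from -2.06 to -1.08 (median -1.44) and touched the control range in replicate 4. The medium dose replicates read -1.45, -1.15, -0.99, -0.63 and -0.97, and the high dose ran from -1.60 to -0.65 (median -1.34), both without overlap. Ier3 rose 1.89-fold (log2 0.92, SE 0.19, limma adjusted p = 0.00718), 2.64-fold (log2 1.40023, SE 0.19, adjusted p = 0.000103) and 2.23-fold (log2 1.16, SE 0.19, adjusted p = 0.00035) at the low, medium and high dose. Without slide 1 the low dose change stayed at 0.92 but was not called (adjusted p = 0.0723), and without slide 3 it was 0.84 (adjusted p = 0.0814). Without control replicates 4 and 5 it was also 0.84 (adjusted p = 0.0695).

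Egr1, a zinc finger factor induced by the same serum response elements as Fos, had control values of -4.88, -4.24, -3.92, -3.91 and -4.12 and medium dose values of -3.66, -4.24, -3.56, -3.84 and -4.01. The low dose ran from -4.40 to -3.72 (median -3.94) and the high dose from -4.39 to -3.62 (median -3.86). The groups overlapped. Its changes were 0.28 (95% interval -0.07 to 0.62), 0.35 (0.003 to 0.70) and 0.36 (0.02 to 0.70), with limma adjusted p of 0.508, 0.322 and 0.244. The intervals at the medium and high dose lie above 0, and no adjusted p passed.

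**Figure D2:**
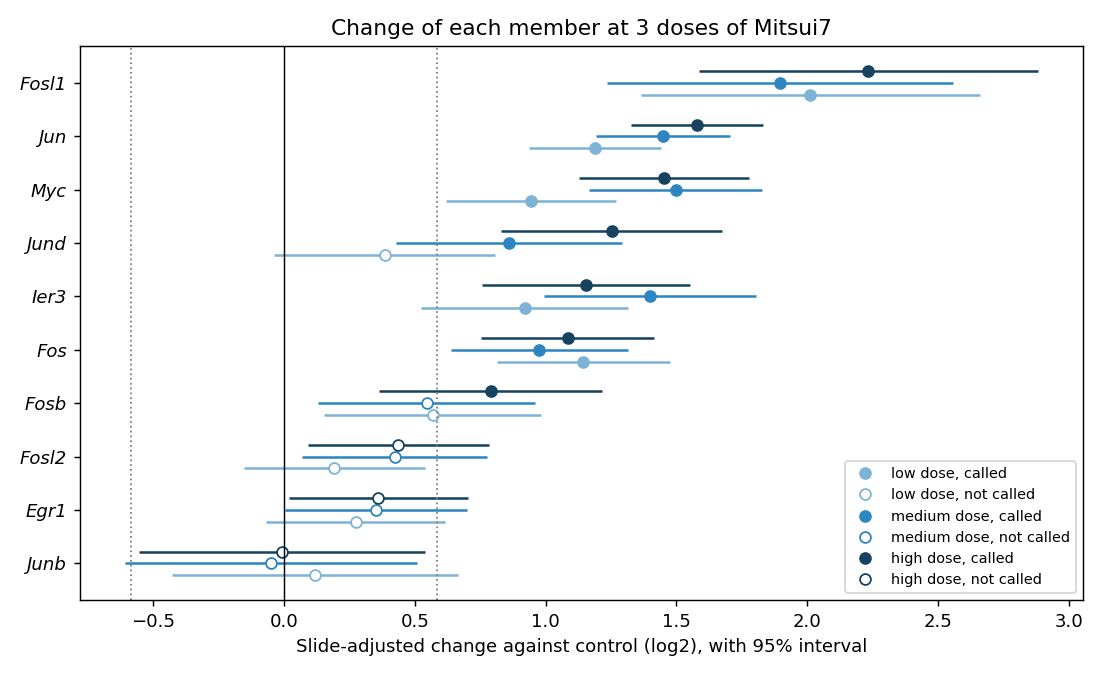
Slide-adjusted change of each member against control on the log2 scale (x axis) at the low, medium and high dose, with 95% intervals from limma and dotted lines at 1.5-fold. Filled points were called and open points were not, with 7 members called at the high dose and Fosl1 farthest from 0 at 2.23.

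Counting arrays without a model gave a like picture. All arrays of a dose lay above every control for 3 members at the low dose (Fosl1, Jun and Myc), for 4 at the medium dose with Ier3 added and for 5 at the high dose with Jund added, beside 1.43%, 3.23% and 3.44% of all detected probes. Within the 4 slides that held controls, Fos, Fosl1, Jun, Jund, Ier3 and Myc were higher than the controls of the same slide on 4 of 4 slides at each dose, and Fosb on 3 of 3. For Jun the within-slide difference lay between 1.00 and 1.28 (low dose) and between 1.28 and 1.83 (high dose). For Fosl1 it lay between 1.49 and 3.20 (low dose) and between 1.77 and 2.48 (high dose). Fos ran from 0.34 to 1.55 at the high dose, with the smallest differences at all doses on slide 4. Junb was higher on 3 slides at the low dose, 2 at the medium dose and 3 at the high dose. Egr1 was higher on 3, 4 and 4 slides, and Fosl2, which was not called, on 2, 4 and 4. The same controls served all doses, and the share of all detected probes with such slide counts was not computed. The slides were also scanned separately, so slide and scan cannot be told apart.

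**Figure D3:**
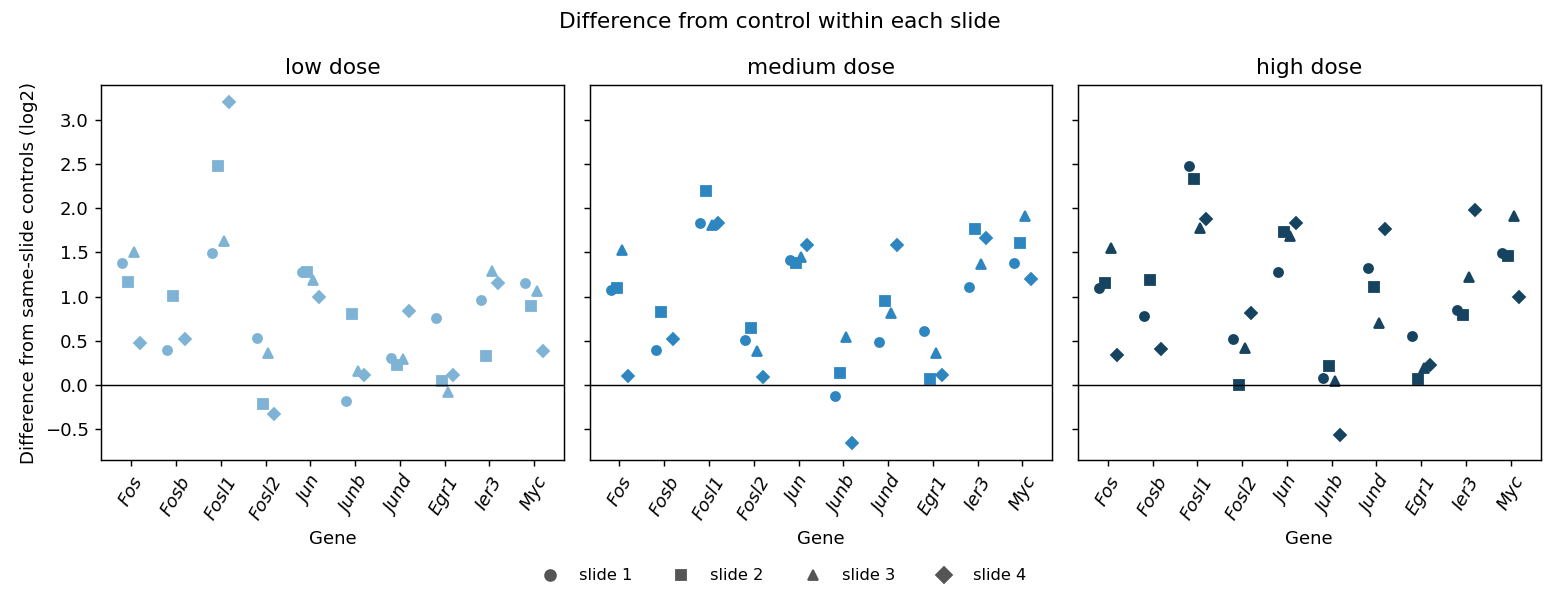
Difference of each member from the controls of the same slide (y axis, log2) at the low, medium and high dose, with 1 symbol per slide for the 4 slides that held controls. Fosl1 lies at 1.49 or above on every slide at every dose, while Junb lies on both sides of 0.

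Doses were compared directly, since calls against shared controls do not show that doses differ. By limma 0 members were called between any pair of doses. Between the high and the low dose, 0.248% of detected probes were called in either direction, and 3 members had an unadjusted p under 0.05. The widest was Jund, 1.82-fold higher at the high dose (log2 0.87, 95% interval 0.47 to 1.26, adjusted p = 0.0579), and with the replicate number as a block it was called (adjusted p = 0.0172). Jund was also called without control replicate 5 (adjusted p = 0.0418), low dose replicate 2 (0.0436) or medium dose replicate 1 (0.0145), but not without low dose replicate 1 and medium dose replicate 2 together (0.76, adjusted p = 0.0877). Myc was 0.51 higher (0.21 to 0.81, adjusted p = 0.196) and Jun 0.39 higher (0.16 to 0.62, adjusted p = 0.204). Fos differed by -0.06 (-0.37 to 0.25) and Fosl1 by 0.22 (-0.38 to 0.82), and the interval for Fosl1 reaches a difference of over 1.5-fold. Between the medium and the low dose 4 members had an unadjusted p under 0.05, with Myc widest at 0.55 (0.23 to 0.88, adjusted p = 0.868), and between the high and the medium dose 0 had. Over all probes limma called 0 in both of these comparisons, with 2303 and 1647 probes at an unadjusted p under 0.05.

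Several pairs of members varied together over the 22 arrays. After adjustment for slide, Pearson's r across arrays was 0.92 between Jun and Myc, 0.85 between Fos and Myc and 0.88 between Fosb and Fosl1, and after the group means were also taken out it was 0.35, 0.74 and 0.74. Fosl1 and Junb had r = 0.39 across groups and 0.78 within them, and Fosl1 and Fosl2 had 0.18 and -0.71. These values describe arrays that share slides, dose groups and the reference pool, and no test was made of them. Among 14339 other genes, those named for the highest r to a called member were Gdf15 (0.96) and Ifit1 (0.95) for Fos, Mapk6 (0.96) and Utp4 (0.95) for Fosl1, and Gsto2 (0.96) for Jun. They were Hgh1 (0.91) and Mcm7 (0.91) for Jund, Ccn2 (0.93) and Pdzd8 (0.93) for Ier3, and Hectd2 (0.96, over 21 arrays) and Hilpda (0.96) for Myc. Fosb had values on 19 arrays and was not compared in this way.

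The AP-1 partners and related leucine zipper genes moved in both directions. Of 14 listed genes 13 were on the array, and 1 was called higher and 1 lower at the low and medium dose, and 2 higher and 1 lower at the high dose. Over all detected probes 1.32%, 2.68% and 3.32% were called higher and 1.93%, 2.92% and 4.23% lower at the 3 doses. Atf3, a stress-induced partner of Jun proteins, rose by 2.47, 2.72 and 3.17 on the log2 scale (SE 0.17, 0.16 and 0.16), with a limma adjusted p of 3.14e-10 at the high dose. Its mean log2 ratio went from -2.20 ± 0.37 (SD, n = 5) in controls to 1.00 ± 0.34 (SD, n = 6) at the high dose, and on 4 of 5 control arrays its spot stood well above background. Maff, a small Maf protein, was called at the high dose (0.83, SE 0.15, adjusted p = 0.000988). Maf, a large Maf protein, fell by 0.76, 0.98 and 1.39 at the 3 doses, with every treated array below every control, and was also lower at the high than at the low dose (-0.63, SE 0.11, adjusted p = 0.0149). That dose difference was not called without the slide term or with median centring.

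Other immediate early genes rose in number with none called lower, beside 1.32%, 2.68% and 3.32% of all detected probes called higher at the low, medium and high dose. Of 32 genes, with Atf3 and Maff counted here as well, 10 were called higher at the low dose, 13 at the medium dose and 14 at the high dose, and the median change of the detected ones was 0.52, 0.60 and 0.60. With median centring the counts were 4, 6 and 10. Ccn2, a secreted matrix protein controlled by YAP and serum response factor, rose by 1.49, 2.12 and 2.10. Plk2, a stress kinase, was called at the medium and high dose (1.47 and 1.56, SE 0.27 and 0.26), and Klf4, a zinc finger factor, rose by 0.99, 1.32 and 1.42. The relatives of Egr1 on the list, Egr2, Egr3 and Egr4, were not called at any dose, and Egr4 was not detected.

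Few of the kinases and factors that act on these promoters were called. Of 22 genes, 21 of them detected, 1 was called higher at each dose and 1 lower at the medium and high dose, beside the shares over all detected probes given above, and the median change was -0.06, -0.10 and -0.11. Crem, which gives rise to repressors that bind cyclic AMP response elements, rose by 0.84, 0.70 and 0.80, though its 2 other probes gave 0.39 and 0.04 at the high dose and were not called. Map2k6, a kinase that activates p38, fell by 0.60 at the medium dose and by 0.65 at the high dose (limma adjusted p = 0.0378 and 0.0127). Its spot stood well above background on 4 of 5 medium dose and 5 of 6 high dose arrays. Its log2 ratio lay below every control on 2 of 5 and 3 of 6 of them, so the groups overlapped. With median centring 0 genes of the list were called higher at any dose. A second probe of Mapk3, which encodes the kinase ERK1, was called lower at the high dose (-1.52, adjusted p = 0.0266), while its main probe gave -0.60 and was not called. The RNA of a kinase does not measure its activity.

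Known AP-1 target genes included the most changed genes of these lists. Of 24 listed genes 22 were on the array, and 9 were called higher and 0 lower at the low dose, 12 and 1 at the medium dose, and 10 and 2 at the high dose. These counts stand beside the shares over all detected probes given above. The median changes were 0.52, 0.87 and 0.52. With median centring the counts were 4 and 1, 6 and 0, and 8 and 1. Mmp13, a collagenase, rose by 3.23, 3.63 and 3.52 (SE 0.18, 0.19 and 0.18), and the stromelysin Mmp10 by 3.07, 3.31 and 3.25. Both were well above background on 3 of 5 control arrays and on all treated arrays. Mmp3, another stromelysin, rose by 1.93, 2.07 and 1.77. Ccnd1, a cell cycle cyclin, was lower at the medium and high dose (-0.69 and -0.62, SE 0.19 and 0.17, adjusted p = 0.0399 and 0.0281), and the chemokine Ccl2 at the high dose (-1.001, SE 0.25, adjusted p = 0.0149). These genes answer to many factors, and the list was assembled with earlier results of these data known.

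**Figure D4:**
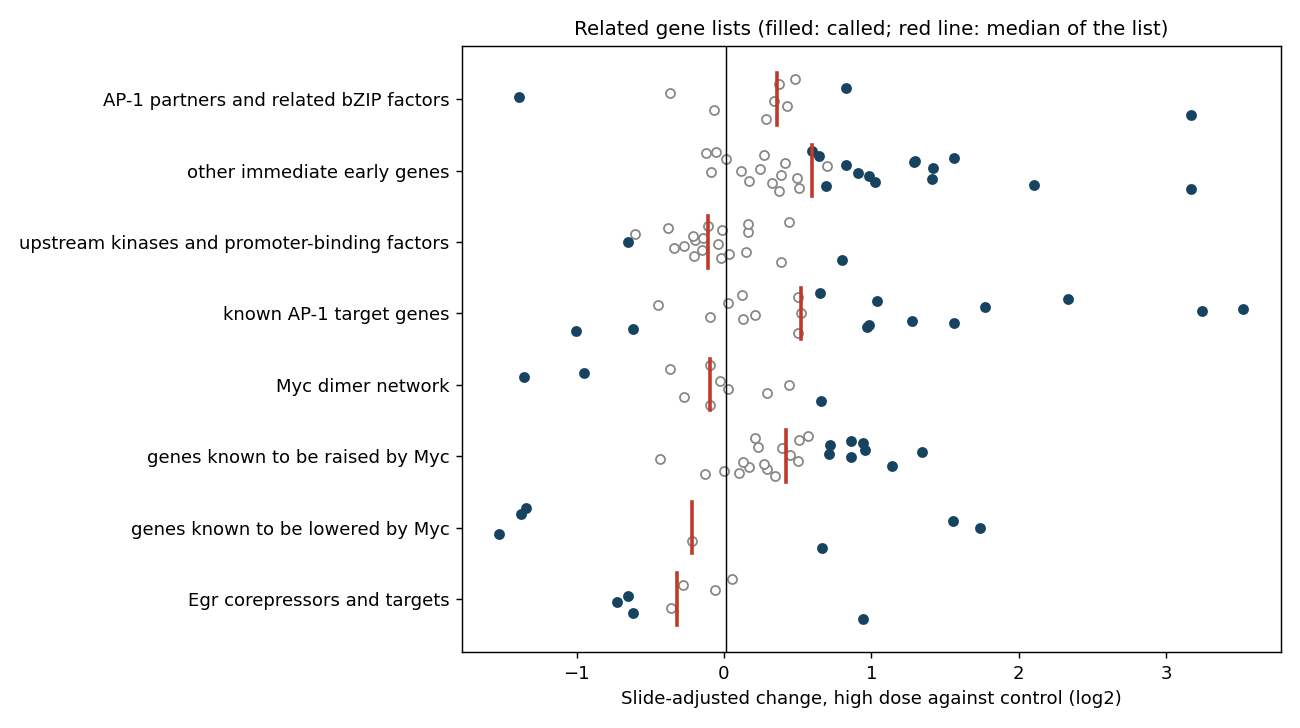
Slide-adjusted change at the high dose against control (x axis, log2) of the detected genes in 8 related lists, filled where called, with a red line at the median of each list and a black line at the median of all detected probes (0.01). The lists of other immediate early genes and of known AP-1 targets have medians of 0.60 and 0.52, and that of upstream kinases and factors -0.11.

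The genes around Myc were also counted, beside the shares over all detected probes given above. In the network of Max partners, of 13 genes 1 was called lower at the low dose, and 1 higher and 2 lower at the medium and high dose. Mxd3, which competes with Myc for Max, fell by 0.99, 1.11 and 1.35, and Mxd4 fell by 0.97 and 0.95 at the medium and high dose. A second Mxd4 probe was called lower at every dose (-0.64, -0.73 and -0.89). Mga, another partner of Max, was higher at the medium and high dose (0.61 and 0.66, SE 0.11 at both) but was not called with median centring. Max itself changed by -0.21, -0.29 and -0.10 and was not called. Of 24 genes known to be raised by Myc, 5 were called higher at the low dose, 9 at the medium dose and 8 at the high dose, 0 were called lower, and the median change was 0.34, 0.45 and 0.42. With median centring the counts were 0, 2 and 3. The highest at the high dose were the nucleolar proteins Nop56 (1.35, SE 0.16), Ddx21 (1.14, SE 0.15) and Nop58 (0.96, SE 0.18) and the RNA polymerase I subunit Polr1b (0.94, SE 0.16), and the 5 called at the low dose were Nop56, Ddx21 and Polr1b with Rrs1 and Mybbp1a, these last named after their values were seen. None of these 5 low dose calls was kept with median centring. A second probe of Ncl, which encodes nucleolin, was called higher at all doses (0.74, 1.08 and 1.06), while its main probe was not called (0.51, 0.55 and 0.45). Of 8 genes known to be lowered by Myc, 2 were called higher and 1 lower at the low dose, 2 and 3 at the medium dose, and 3 and 3 at the high dose. The stress genes Gadd45a (1.74) and Ndrg1 (1.55) and the cyclin kinase inhibitor Cdkn1a (0.66) were higher, and Col1a2 (-1.52), Ndrg2 (-1.38) and Pdgfrb (-1.34) were lower at the high dose. These 3 were also called lower at the high than at the low dose, but 0 of them without the slide term or with median centring, and Col1a2 and Pdgfrb are also on the fibroblast list. A second Cdkn1a probe gave 0.41 and was not called.

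Of 8 corepressors and targets of Egr factors, 1 was called higher at each dose, and 0, 1 and 3 were called lower at the low, medium and high dose. These counts stand beside the shares over all detected probes given above. The median change was -0.16, -0.21 and -0.32. F3, the clotting initiator tissue factor, rose by 0.64, 0.88 and 0.94. With median centring 0 genes of the list were called higher at any dose, and 0, 0 and 1 lower. At the high dose the corepressor Nab2 fell by 0.73 (SE 0.10) and the growth factor Pdgfa by 0.65 (SE 0.13). Fn1, which encodes fibronectin, fell by 0.61 (SE 0.17) at that dose. A second Nab2 probe changed by -0.16 at the high dose and was not called. A second Pdgfa probe was called lower at the low and high dose (-0.65 and -0.60) but not at the medium dose (-0.49).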

How the data were processed

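The authors deposited the scanner output, read out with Feature Extraction 10.7.3.1 per the file headers. The deposited median intensity of each spot and dye was not normalized by the authors. The deposited log10 ratio was corrected for background and dye by the software. The authors' series matrix holds log2 ratios by a method not given in the sources used here. It was used as an alternative. Control spots were dropped and outlier spots treated as missing. Loess was applied array by array to log2(Cy5/Cy3) of the unsubtracted signals. Spots of a probe were combined by their median, and a gene is given by its brightest probe. Without background subtraction, ratios of dim spots are drawn together. Detection required a Cy5 signal above the 5% trimmed mean plus 3 trimmed SDs of 308 negative control spots. Accessions were matched to symbols of GRCm38.p6 for 26413 of 55681 probes. Array coordinates are on mm9 and are not printed.

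Groups were taken from the labels and compared with limma 3.58.1 in R 4.3.3 in 1 model of group and slide over 22 arrays, in place of the Fs test named in the study's methods, which was not installed. The members, lists and rules for named genes were chosen with earlier results of these data known. From each list, the called genes with the largest changes at the high dose are named, at most 4 in a direction, with Atf3 and Mmp13. For each called member the 2 genes with the most similar pattern are named. A gene that these rules name is not reported here. Deviations from the group means correlated at 0.175 to 0.819 over 31 pairs of arrays with equal sample number. Over 150 pairs of different number they correlated at -0.715 to 0.550. Most pairs of equal number share a slide, and the 4 that do not gave 0.276 to 0.507. The parts of sample number and slide in this were not tested. Alternatives changed the background correction, scaling, slide term, filters and thresholds, or left out arrays and slides. The script was tested on simulated data. The number of arrays limits the precision. No pair of arrays was a copy of the same scan, as equal Cy5 signals made up 2.42% of spots or less. That check cannot tell whether arrays carried RNA of the same exposure.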

Additional observations from a re-analysis of the deposited data

Results flagged for a closer look

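Of 40 sets of arrays, formed by the 10 members in 4 groups, 3 held an array far from the rest by Dixon's test, where chance alone gives about 1 in 20. Fos read -3.58 on medium dose replicate 2, below -3.36 to -3.33 on the other medium dose arrays, and without it the medium dose change was 1.01 and still called by limma. Jund read -1.22 on medium dose replicate 1, where the other medium dose arrays were between -0.19 and 0.22. Egr1 read -4.39 on high dose replicate 1, with the other high dose arrays at -3.90 to -3.62, and without it the high dose change was 0.47 (limma adjusted p = 0.099), still not called. All 3 arrays are on slide 1.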

How the results depend on the processing

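Over 43 alternatives 2 to 6 members were called for the low dose, 4 to 7 for the medium and 6 to 7 for the high dose, and the count stayed at 0 between the medium and low and between the high and medium dose. Leaving out single arrays gave 5 to 6, 5 to 7 and 6 to 7 against control, and 0 to 1 between the high and low dose. The low dose count was 2 with median centring, where Jun (adjusted p = 0.052), Ier3 (0.293) and Myc (0.13) were lost, and 3 with a 2-fold threshold. Between high and low dose 1 member, Jund, was called with the replicate block in place of the slide term and with adjustment over detected probes only (adjusted p = 0.0344). The replicate block also added Fosb at the low dose (0.65, adjusted p = 0.0178) and changed no other call of a member.

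Calls at every alternative were kept by Fos and Fosl1 at the low and high dose, by Fosl1, Jun, Ier3 and Myc at the medium dose, and by Jun, Jund, Ier3 and Myc at the high dose. Jund at the medium dose was lost in 10 of 41 alternatives and Fosb at the high dose in 9. With no slide term their adjusted p were 0.082 and 0.12, and the cause was not tested. With 2 added exclusions chosen after seeing the data, control replicates 4 and 5 or low dose replicate 1 and medium dose replicate 2, the first lost Ier3 at the low dose, Jund at the medium dose and Fosb at the high dose, and the second lost none.

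Signs turned only for changes that were not called. Junb against control at the high dose (-0.01) became 0.0136 without the slide term, 0.000991 with the replicate block, 0.0137 with slide as a random block, 0.15 with the scanner log ratio, 0.12 with the authors' value table, 0.12 without slide 4, 0.00993 without low dose replicate 1 and medium dose replicate 2, and 0.00248 without control replicates 4 and 5. At the medium dose (-0.05) it became 0.0298 with the scanner log ratio, 0.00628 with the value table, 0.0068 without slide 1 and 0.10 without slide 4. At the low dose (0.12) it became -0.11 with median centring and -0.0399 without slide 2. Between high and low dose Fos (-0.06) became 0.0446 with median centring, 0.0456 with the scanner log ratio and 0.0571 without slide 1, Egr1 (0.09) became -0.0203 with the scanner log ratio and -0.00151 without slide 5, and Fosl1 (0.22) became -0.16 without slide 1. Without slide 1 the low dose changes of Fosl2 and Egr1 were -0.011 and -0.0229. Leaving out single arrays moved the change of Junb between -0.00227 and 0.323 at the low dose, -0.278 and 0.186 at the medium dose and -0.098 and 0.0913 at the high dose, and the difference of Egr1 between high and low dose between -0.00151 and 0.181.

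Over all probes, limma called 999 (low dose), 1666 (medium) and 2437 (high) against control and 82 between high and low dose. Median centring gave 423, 606, 1296 and 4, a 2-fold threshold 263, 446, 714 and 10, and no fold threshold 1889, 2923, 4460 and 158. The low dose count was 654 with only the 2 groups compared. Between high and low dose it was 27 without the slide term, 174 with the replicate block, 39 with only the 2 groups compared, 35 with the value table, 124 adjusted over detected probes, 11 without slide 3, 38 without slide 5 and 199 without low dose replicate 1 and medium dose replicate 2, and that exclusion also gave 2 calls between the medium and low dose. Leaving out low dose replicate 1 alone gave 195 and the same number, 2, between medium and low dose. Without low dose replicate 2, 3, 5 or 6 the high against low dose count was 50, 44, 38 and 49, and without high dose replicate 2, 3 or 5 it was 46, 38 and 38.

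The called genes of the related lists kept their direction under 8 settings of scaling, block and left-out arrays, but many calls ended with median centring, as given beside each list. Signal over background limits Fos, Junb, Mmp10 and Mmp13 in controls, each well above it on 3 of 5 control arrays. It also limits Fosb, Fosl1, Atf3, Mmp3, Mga and Map2k6, each well above it on 4 of 5.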
